A study of Homo sapiens with 18 samples.

Results

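The ER membrane protein complex (EMC) is represented here by 6 of its subunits: EMC1, EMC3, EMC4 and EMC7, which are anchored in the membrane, and EMC2 and EMC8, which are soluble. Each subunit was followed through 1 Ensembl transcript (ENST00000477853 for EMC1, ENST00000245046 for EMC3, ENST00000267750 for EMC4, ENST00000256545 for EMC7, ENST00000220853 for EMC2 and ENST00000253457 for EMC8). The transcripts were taken by their IDs and checked by the length of the protein, out of 26679 transcript entries in the footprint tables and 98334 in the mRNA tables. The coding length given for each of the 6 transcripts was 20 codons below its protein length in the footprint tables and 19 below it in the mRNA tables, so none was dropped. All 6 had an entry in every table, EMC7 with 0 counts in WT cytosol library b, and all 6 passed the filter on low counts. No other entry had the same counts as any of them.

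The EMC is an insertase of the endoplasmic reticulum (ER): it places transmembrane segments into the lipid bilayer, both while a protein is being made and after it has left the ribosome. Its clients include many tail-anchored proteins and the first segments of many multipass proteins. The complex has a lumenal part, a membrane part and a cytosolic part, and the cytosolic part is built from soluble proteins that need no insertion of their own.

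Ribosome footprints, the stretches of mRNA that ribosomes protect from nuclease, were sequenced from a membrane and a cytosolic fraction, and mRNA from whole cells. The cells were HEK293, a human embryonic kidney line, in 3 forms grown in the same medium: UFM1-KO, a clonal line made with Cas9 and a guide against UFM1; UFSP2-KO, a clonal line made with Cas9 and a guide against UFSP2; and wild type (WT), unedited cells. UFM1 is a ubiquitin-like modifier of other proteins, and the protease UFSP2 takes it off them again. Each line gave 2 libraries, a and b, of membrane footprints, cytosol footprints and mRNA, or 18 libraries in 9 groups of 2. The cytosolic fraction was released with digitonin, and the membrane fraction was released with Triton from the pellet that remained. Each knockout was 1 clone, so an effect of the knockout and a difference between clones cannot be told apart. The labels do not say that libraries a and b came from separate cultures, and p-values measure the spread between these libraries only.

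Library totals were 2848544 to 11388755 counts for membrane footprints, 1393032 to 6666021 for cytosol footprints and 37451244 to 68675420 for mRNA. The tables carry transcript IDs without gene names, so the transcripts of UFM1 and UFSP2, the remaining EMC subunits and marker genes of the fractions or of HEK293 cells were not analysed here. Levels are given as CPM, the usual counts scaled to library size, with TMM scaling. Library size there is the total over the features tested, not the full library total. Tests are edgeR quasi-likelihood tests adjusted by the Benjamini-Hochberg method over all features tested. Transcripts whose counts were the same throughout an assay formed 1 feature, and a feature was called at an adjusted p under 0.05. TMM scaling was run over the footprint libraries of both fractions together. A log2 membrane-to-cytosol ratio of 0 thus means an equal level after this scaling. It means neither an equal share of the footprints of either fraction nor an equal number of ribosomes.

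In RefSeq's annotation of GRCh38.p14, EMC1 lies on chr1:19215660-19251524 (minus strand), EMC3 on chr3:9962682-10011118 (minus strand) and EMC8 on chr16:85778624-85799544 (minus strand). EMC4 and EMC7 are on the same chromosome, at chr15:34225016-34230156 (plus strand) and chr15:34084017-34101862 (minus strand), with 123153 bases between them. EMC1 and EMC3 overlap the antisense RNAs EMC1-AS1 and EMC3-AS1, and EMC8 overlaps an unnamed long noncoding RNA. How strand was used in counting is not given in the sources used here, so reads of these overlapping genes could have entered the counts.

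Among the anchored subunits, EMC1 and EMC7 are made with a cleaved signal peptide at their start, and EMC3 and EMC4 without one. The first coding bases of these 2 subunits, from RefSeq, are shown because these stretches open the signal peptides; they run 5′ to 3′ with the start codon in capitals, at chr1:19251475-19251509 (minus strand) for EMC1 and chr15:34101813-34101839 (minus strand) for EMC7.
EMC1: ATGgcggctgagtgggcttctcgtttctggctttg
EMC7: ATGgcggccgctctgtggggcttcttt

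The membrane fraction was compared with the cytosol in each line to see where the subunits were being translated. Footprints of all 4 anchored subunits were higher in the membrane fraction in all 3 lines, while neither soluble subunit was called in any line. Of the anchored subunits, EMC1 and EMC3 were 84.0-fold to 149-fold higher than in the cytosol by the fitted ratios, and EMC7 had almost no cytosol counts. EMC4 was higher at the membrane by 4.92-fold to 6.17-fold only, and kept a clear level in the cytosol. By edgeR, 28.9% of all 11065 features were called in either direction in UFM1-KO, 36.9% in UFSP2-KO and 37.5% in WT. The 4 of 6 members called higher in each line stood against 23% of all features called higher in UFM1-KO, 24.8% in UFSP2-KO and 25.3% in WT. The median log2 ratio of the 6 members was 4.51 in UFM1-KO, 4.56 in UFSP2-KO and 4.68 in WT, against 0.019, 0.012 and -0.020 over all features. No member lay near this median, which falls in the gap between EMC4 and the other anchored subunits.

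EMC1, the largest subunit, forms much of the lumenal part and is tied to the membrane by a single segment. Its footprints were 331 and 365 CPM in the membrane fraction of UFM1-KO against 5.48 and 3.03 CPM in its cytosol. In UFSP2-KO cells the membrane level was 260 and 311 CPM against 5.32 and 1.17 CPM in the cytosol, and in WT cells 290 and 268 CPM against 7.99 and 0.46 CPM. The fractions were far apart in every line, and the cytosol values rest on 2 to 8 counts per library. The log2 ratio was 6.39 (SE 0.44) in UFM1-KO, 6.94 (SE 0.47) in UFSP2-KO and 7.07 (SE 0.48) in WT, with edgeR adjusted p-values of 1.36e-12, 9.74e-13 and 8.51e-13. Single cytosol libraries moved the ratio: in WT it was 9.11 without cytosol library a and 5.12 without cytosol library b, and in UFSP2-KO 7.88 and 5.63 without its cytosol library a or b. All of these ratios were still called.

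EMC7, a small subunit with a lumenal domain and a single membrane segment, had the highest fitted ratio of the 6 in each line. Its membrane footprints were 153 and 187 CPM in UFM1-KO, 128 and 156 CPM in UFSP2-KO, against 96.8 and 133 CPM in WT. In the cytosol it had 1 and 2 counts in UFM1-KO, 1 and 3 counts in UFSP2-KO, and 2 and 0 counts in WT. Almost no footprint of EMC7 was recovered from the cytosol in any library. With libraries pooled per fraction and scaled to their totals, the membrane-to-cytosol ratio was 155 in UFM1-KO (1176 against 3 counts, exact 95% interval 52.8 to 752). It was 152 in UFSP2-KO (619 against 4 counts, 59.0 to 559) and 313 in WT (1187 against 2 counts, 86.4 to 2587). These intervals cover counting error only and overlap widely between lines. The fitted log2 ratios were 7.53 (SE 0.47), 7.27 (SE 0.46) and 8.09 (SE 0.52), with edgeR adjusted p-values of 2.21e-13, 2.34e-13 and 2.49e-13. In WT the fitted ratio was 11.46 without cytosol library a, which leaves 0 cytosol counts and so a value set by the fit's prior, and 5.83 without cytosol library b. The order of EMC7, EMC3 and EMC1 is not settled by these counts: EMC7 fell below EMC3 in UFM1-KO without cytosol library a (7.33 against 7.62) and in WT without cytosol library b (5.83 against 6.43). In UFSP2-KO it fell below EMC1 without cytosol library a (7.27 against 7.88) and below EMC3 without cytosol library b (7.16 against 7.55).

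EMC3 is the subunit that resembles bacterial and mitochondrial insertases and forms part of the path by which client segments enter the bilayer. It had 214 and 197 CPM at the membrane against 3.43 and 1.01 CPM in UFM1-KO cytosol, and 160 and 214 CPM against 0.887 and 2.35 CPM in UFSP2-KO. In WT it had 175 and 176 CPM at the membrane against 2.0 and 0.921 CPM in the cytosol. EMC3 and EMC4 both lack a cleaved signal peptide, and whether the peptide has a part in these levels was not tested. EMC3 ranked with EMC1 and EMC7, and EMC4 did not. The log2 ratio of EMC3 was 6.62 (SE 0.38) in UFM1-KO, 6.54 (SE 0.37) in UFSP2-KO and 7.22 (SE 0.40) in WT, with edgeR adjusted p-values of 4.30e-14, 3.14e-14 and 1.93e-14. In UFM1-KO it was 7.62 and 5.85 without cytosol library a or b, in UFSP2-KO 7.55 without cytosol library b, and in WT 6.43 without cytosol library b, called each time.

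EMC4, another subunit of the membrane part, differed from the other anchored subunits in the cytosol. It had 18.5 and 29.8 CPM in UFM1-KO cytosol, 23.1 and 17.3 CPM in that of UFSP2-KO and 15 and 28.3 CPM in that of WT, or 15 to 123 counts per library. Its membrane footprints were 147 and 157 CPM in UFM1-KO, 86.4 and 142 CPM in UFSP2-KO, against 127 and 110 CPM in WT, above the cytosol in every library. The cytosol level of EMC4 exceeded that of EMC1, EMC3 and EMC7 in all 6 cytosol libraries, while its membrane level lay in their range or below it. The log2 ratio was 2.63 (SE 0.29) in UFM1-KO, 2.57 (SE 0.30) in UFSP2-KO and 2.30 (SE 0.28) in WT, with edgeR adjusted p-values of 1.38e-08, 3.84e-08 and 9.19e-08. In WT it was 2.98 without cytosol library b. The 95% interval in WT, 1.72 to 2.88, ended below the lowest bound of the other 3 anchored subunits in that line, 6.08 for EMC1.

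Read within each library, which removes any scaling between libraries, EMC4 made up far more of the anchored subunits' footprints in the cytosol. Its counts divided by the summed counts of EMC1, EMC3 and EMC7 gave 0.158 to 0.226 in the 6 membrane libraries (median 0.209) and 1.25 to 20.5 in the 6 cytosol libraries (median 3.59). The 2 sets of libraries did not overlap, and the mean log2 difference, membrane less cytosol, was -4.30. It was -4.98 without WT cytosol library a and -3.63 without WT cytosol library b. This ratio was chosen after the values had been seen and is given as a description.

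EMC4 also has the shortest coding sequence of the 6. In WT, 16.5% of 1762 features of up to 200 codons were called higher at the membrane, against 24.9% of 3010 features of over 200 and up to 400 codons and 28.0% of 6293 longer ones. Among the 291 short features called higher in WT the median log2 ratio was 4.46, and 21.3% of them lay below EMC4. The share below it was 23.4% of 291 such features in UFM1-KO and 22.8% of 281 in UFSP2-KO. EMC4 was thus in the lower part of its length class but not at its end. Whether length has a part in its cytosol level was not tested.

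**Figure D1:**
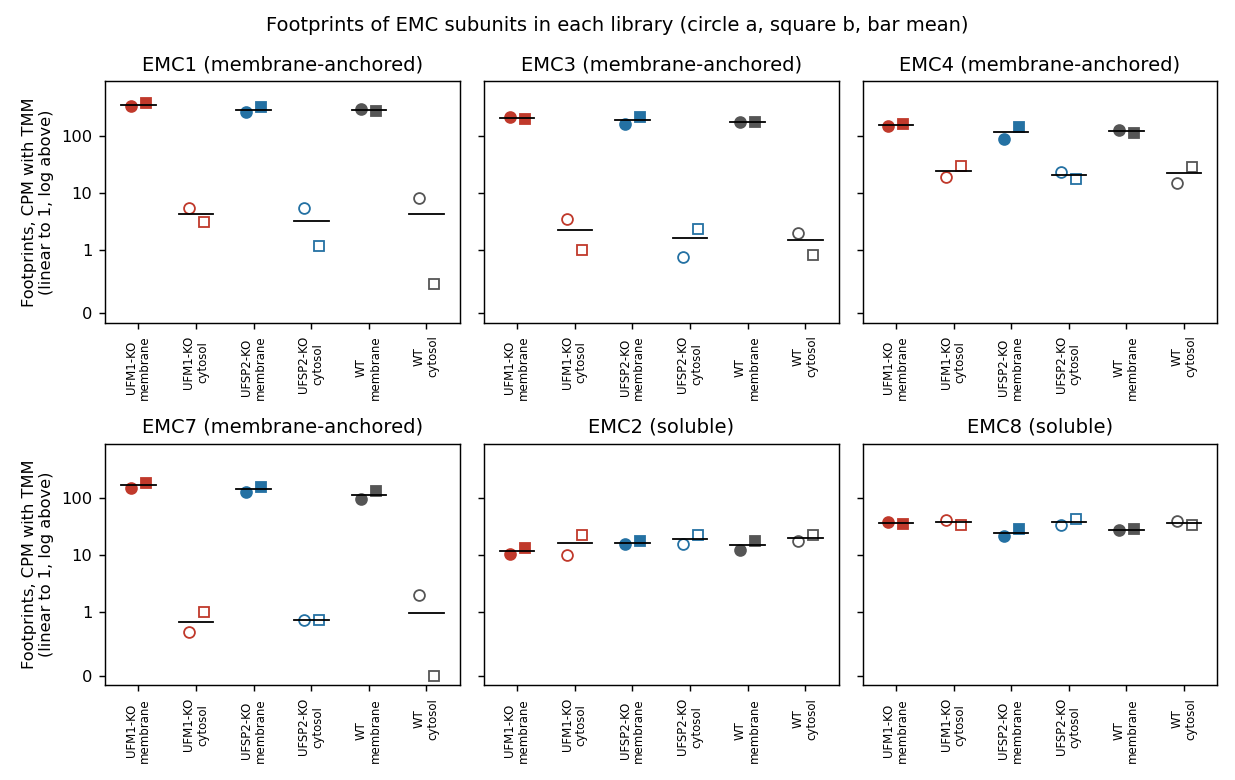
Footprint levels of each EMC subunit in every library, in CPM with TMM scaling on an axis that is linear to 1 and logarithmic above; filled symbols are membrane libraries, open symbols cytosol libraries, circles library a, squares library b, and bars the mean of 2 libraries. EMC1, EMC3 and EMC7 fall to between 0 and 7.99 CPM in the cytosol, EMC4 stays at 15 CPM or above, and EMC2 and EMC8 lie between 10.3 and 43.5 CPM over both fractions.

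The soluble subunits were not called in any line, and their log2 ratios lay between -0.64 and -0.03. EMC2, a helical repeat protein that forms the scaffold of the cytosolic part, had 10.5 and 13.4 CPM at the membrane against 10.3 and 22.7 CPM in UFM1-KO cytosol, and 15.9 and 17.5 CPM against 16.0 and 22.3 CPM in UFSP2-KO. In WT it had 12.3 and 17.6 CPM at the membrane against 18 and 22.6 CPM in the cytosol. The fractions overlapped in both knockouts, where 59.2% and 64.9% of features did not overlap, and were separate by a narrow margin in WT, as for 67.3% of all features in that line. Its log2 ratio was -0.55 (SE 0.35), -0.25 (SE 0.34) and -0.44 (SE 0.31) in UFM1-KO, UFSP2-KO and WT, with edgeR adjusted p-values of 0.290, 0.615 and 0.289.

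EMC8, which binds EMC2 in the cytosolic part, had 37.7 and 35.4 CPM at the membrane against 41.8 and 33.8 CPM in UFM1-KO cytosol. In UFSP2-KO it had 21.6 and 28.6 CPM at the membrane against 33.7 and 43.5 CPM in the cytosol, and in WT 27.4 and 29.2 CPM against 40.0 and 33.4 CPM. The fractions overlapped in UFM1-KO, and the membrane libraries were below the cytosol libraries in UFSP2-KO and in WT. Fractions were separate in one direction or the other for 64.9% of all features in UFSP2-KO and 67.3% in WT. The log2 ratio was -0.03 (SE 0.24) in UFM1-KO and -0.33 (SE 0.24) in WT, with edgeR adjusted p-values of 0.954 and 0.306. In UFSP2-KO it was -0.64 (SE 0.25), at the edge of the threshold with an edgeR adjusted p of 0.0501. Without UFSP2-KO cytosol library a the ratio was called (-0.77, edgeR adjusted p = 0.0360), as it was with library size only (-0.84, edgeR adjusted p = 0.00950); over all alternatives the adjusted p was 0.00950 to 0.305. The highest upper bound of the 95% intervals of EMC2 and EMC8 in any line was 0.47, so none of them reaches the lowest bound of EMC4, 1.72.

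Counted together within each library, EMC2 and EMC8 had 0.0539 to 0.0681 footprints per footprint of the 4 anchored subunits in the 6 membrane libraries, and 1.62 to 3.03 in the 6 cytosol libraries. Among these 6 subunits, the anchored ones thus had more of the counts in every membrane library and the soluble ones more in every cytosol library. The ratio of EMC2 to EMC8 was 0.279 to 0.737 in membrane libraries and 0.246 to 0.676 in cytosol libraries, ranges that overlapped almost fully. These ratios too were chosen after the values had been seen.

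**Figure D2:**
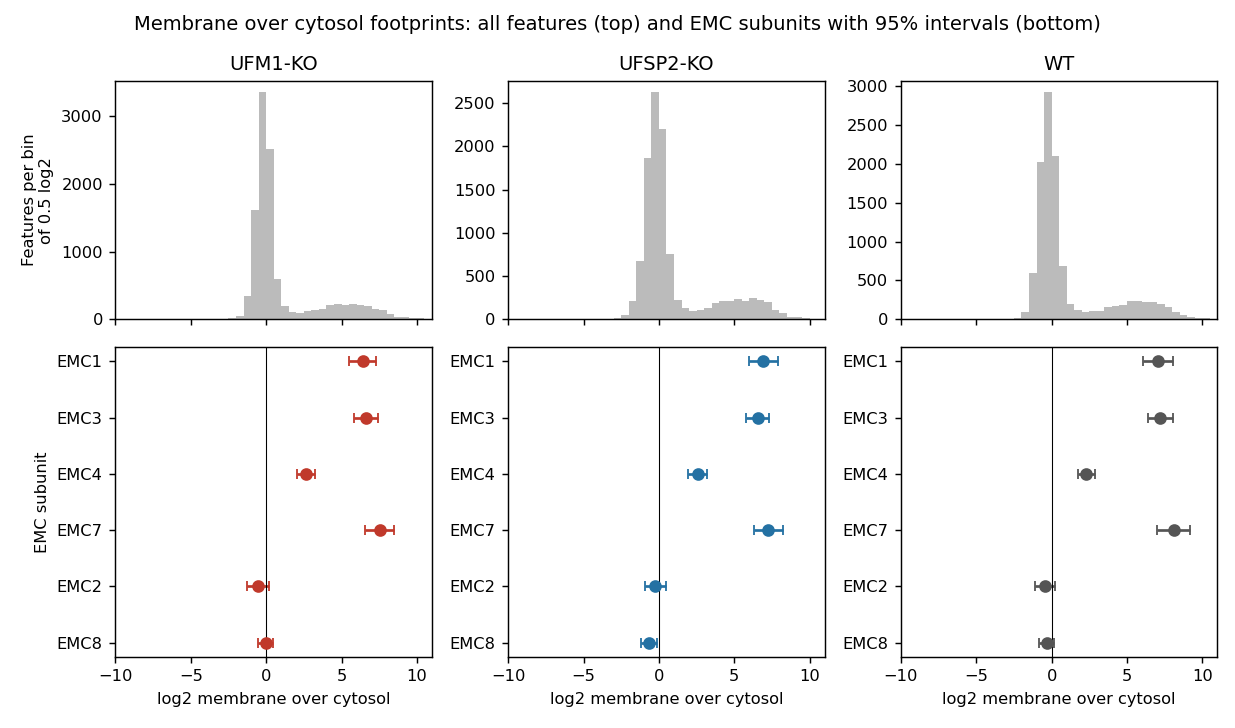
Top, number of features per bin of 0.5 in log2 membrane-to-cytosol ratio for the 11065 features tested in UFM1-KO, UFSP2-KO and WT; bottom, the edgeR ratio of each EMC subunit with its 95% interval on the same axis. EMC1, EMC3 and EMC7 lie in the upper part of the minor peak at high ratios, EMC4 lies between the peaks at 2.30 to 2.63, and EMC2 and EMC8 lie in the main peak.

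In the distribution of all features, EMC7 stood at percentile 97.1 in UFM1-KO, 97.1 in UFSP2-KO and 98.3 in WT. EMC1 stood at 93.5, 95.9 and 95.1 and EMC3 at 94.2, 94.3 and 95.7 in UFM1-KO, UFSP2-KO and WT. EMC4 stood at 80.7, 80.3 and 79.7 in the same lines. EMC2 and EMC8 lay between percentiles 16.1 and 46.6. Without TMM scaling, the median log2 ratio of all features moved by -0.29 in UFM1-KO, -0.19 in UFSP2-KO and -0.14 in WT, and the calls of the 4 anchored subunits held.

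To find whether either knockout moved the translation of a subunit between the fractions, the difference of this ratio between lines was tested as an interaction. It was called for 0 of the 6 subunits in UFM1-KO against WT, where 0.00904% of features were called, and for 0 in UFSP2-KO against WT, also 0.00904%. Between UFM1-KO and UFSP2-KO it was called for 0, against 0.0362% of features. At an unadjusted p under 0.05 the number was 0 in all 3 comparisons as well, and DESeq2 called 0. For the soluble subunits and EMC4 the 95% intervals of the log2 change against WT ran from -1.08 at the lowest to 1.16 at the highest. For EMC1, EMC3 and EMC7, with their few cytosol counts, they ran from -3.36 to 2.04, so several-fold changes were not detectable at this depth.

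Within the membrane fraction, footprints in UFM1-KO and UFSP2-KO were each set against WT. No subunit was called in either knockout. In UFM1-KO, 5 of 6 subunits were above both WT libraries in both UFM1-KO libraries, which 44.8% of all features matched in one direction or the other, and EMC2 overlapped WT. EMC7 had the highest log2 change, 0.55 (SE 0.23), with an unadjusted p of 0.0263 and an edgeR adjusted p of 0.349. EMC8 followed at 0.37 (SE 0.23), EMC4 at 0.36 (SE 0.24), EMC1 at 0.32 (SE 0.28) and EMC3 at 0.23 (SE 0.21). EMC2 was at -0.41 (SE 0.32), the only negative value, and its level rests on 25 to 126 counts in these libraries. The median of the 6 was 0.34, against 0.048 over all features. The edgeR test called 0 of the 6, where it called 1.26% of features, with 1 at an unadjusted p under 0.05; DESeq2 called 0.

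In UFSP2-KO all 6 subunits overlapped WT in the membrane fraction, where 58.7% of all features did not overlap. EMC7 had a log2 change of 0.30 (SE 0.23), EMC2 of 0.12 (SE 0.32), EMC3 of 0.09 (SE 0.22) and EMC1 of 0.04 (SE 0.28), while EMC4 was at -0.04 (SE 0.25) and EMC8 at -0.16 (SE 0.25). The edgeR test called 0 of the 6, 0 also at an unadjusted p under 0.05, against 11.1% of all features, and DESeq2 called 0. The 95% intervals of the 6 changes ran from -0.67 to 0.79. Against UFSP2-KO, UFM1-KO had a log2 difference of 0.53 (SE 0.25) for EMC8, at an unadjusted p of 0.0418 and an edgeR adjusted p of 0.129, and -0.53 (SE 0.35) for EMC2. The remaining subunits were at 0.14 to 0.40, and 0 of 6 were called by edgeR or DESeq2, with 1 at an unadjusted edgeR p under 0.05, where edgeR called 21.4% of features. Both knockouts were compared with the same WT libraries, so their changes are not independent.

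In the cytosol 0 of 6 subunits were called in UFM1-KO against WT (0.85% of features), in UFSP2-KO against WT (3.99%) and in UFM1-KO against UFSP2-KO (12%). By edgeR 0 had an unadjusted p under 0.05 in these 3 comparisons, and DESeq2 called 0. The libraries overlapped for every subunit in each comparison, while 36.5%, 44.5% and 50% of all features did not overlap in the same 3 comparisons. The precision differed among subunits: the SE of the log2 change in UFM1-KO against WT was 0.25 for EMC8 and 1.33 for EMC7.

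**Figure D3:**
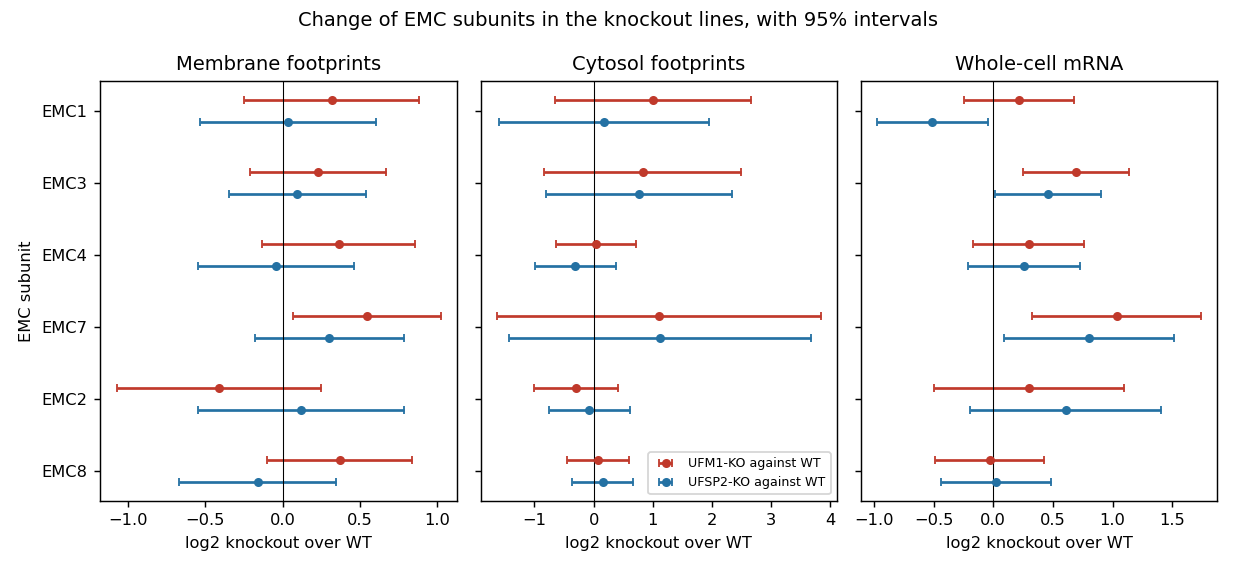
Log2 change of each EMC subunit in UFM1-KO and in UFSP2-KO against WT, with 95% intervals from edgeR, in membrane footprints, cytosol footprints and whole-cell mRNA; each panel has its own horizontal scale. In the membrane fraction the points lie between -0.41 and 0.55, and the cytosol intervals of EMC1, EMC3 and EMC7 are wide. In mRNA the intervals of EMC3 and EMC7 lie right of 0 for both knockouts, with EMC2 at 0.30 and 0.61. That of EMC1 in UFSP2-KO lies left of 0. No change shown passed the adjusted threshold.

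Messenger RNA was compared between lines to see whether the level of any subunit's transcript differed. Only EMC1 was called, and only between the knockouts. Its mRNA was 117 and 158 CPM in UFM1-KO, 91.4 and 74.4 CPM in UFSP2-KO, against 114 and 122 CPM in WT. Both UFSP2-KO libraries were the lowest, and UFM1-KO overlapped WT. Of all features, 53.4% had no overlap between UFSP2-KO and WT, and 58.2% had none between the knockouts. The log2 difference of UFM1-KO over UFSP2-KO was 0.72 (SE 0.22, edgeR adjusted p = 0.0338), or 1.65-fold, and 16% of all features were called in that comparison. The call did not hold with only these groups in the model (edgeR adjusted p = 0.0570), without UFM1-KO library b (log2 0.49, edgeR adjusted p = 0.287) or without UFSP2-KO library b (log2 0.58, edgeR adjusted p = 0.159), and over all alternatives the adjusted p was 0.0167 to 0.287. Without UFM1-KO library a, edgeR called EMC2 as well, at -1.13 (adjusted p = 0.0378, and up to 0.758 under the other alternatives). Against WT the log2 change of EMC1 was 0.21 (SE 0.22) in UFM1-KO and -0.51 (SE 0.22) in UFSP2-KO, with edgeR adjusted p-values of 0.664 and 0.162. In membrane footprints the log2 change of EMC1 in UFSP2-KO was 0.04, and its difference from the mRNA change was not called.

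The mRNA of EMC3 and EMC7 had an unadjusted p under 0.05 in both knockouts against WT, without passing the adjusted threshold. EMC3 had 95.5 and 94.3 CPM in UFM1-KO and 74.8 and 85.8 CPM in UFSP2-KO, against 61.8 and 55.3 CPM in WT. Neither knockout overlapped WT, as held for 48.8% of features in the UFM1-KO comparison and 53.4% in the UFSP2-KO one. The log2 change was 0.70 (SE 0.21, edgeR adjusted p = 0.104) in UFM1-KO and 0.45 (SE 0.21, edgeR adjusted p = 0.192) in UFSP2-KO. With DESeq2 the change in UFM1-KO was 0.71 and was called (adjusted p = 0.0310), and under the other alternatives the adjusted p reached 0.476.

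EMC7 mRNA was 75.3 and 34.5 CPM in UFM1-KO and 36.4 and 57.4 CPM in UFSP2-KO, against 32.5 and 21.3 CPM in WT. Libraries of the same line were up to 2.18-fold apart, and the lower UFM1-KO library was close to the higher WT library. The log2 change was 1.03 (SE 0.34, edgeR adjusted p = 0.130) in UFM1-KO and 0.80 (SE 0.34, edgeR adjusted p = 0.154) in UFSP2-KO. The call depended on the model. In UFM1-KO edgeR called it with only the groups compared (1.03, adjusted p = 0.0304) and without UFM1-KO library b (1.49, adjusted p = 0.000282). In UFSP2-KO edgeR called it with only the groups compared (0.80, adjusted p = 0.0386) and without UFSP2-KO library a (1.1, adjusted p = 0.0273). The change in UFM1-KO was 0.36 without UFM1-KO library a, and that in UFSP2-KO was 0.44 without UFSP2-KO library b and 0.53 without WT library b, none of them called. Over all alternatives its adjusted p with edgeR or DESeq2 was 0.000282 to 0.904 in UFM1-KO and 0.0273 to 0.645 in UFSP2-KO.

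EMC4 mRNA was 51.3 and 58.8 CPM in UFM1-KO and 58.4 and 48.6 CPM in UFSP2-KO, against 46.2 and 43.4 CPM in WT. Every knockout library was above both WT libraries, in comparisons where 48.8% (UFM1-KO) and 53.4% (UFSP2-KO) of features were separate from WT in one direction or the other, but the log2 changes were 0.30 (SE 0.22) and 0.26 (SE 0.22), with edgeR adjusted p-values of 0.530 and 0.508. EMC2 mRNA varied widely within the knockouts, at 31.5 and 12.5 CPM in UFM1-KO and 18.8 and 36.0 CPM in UFSP2-KO, against 19.5 and 16.5 CPM in WT, and the log2 change was 0.30 (SE 0.37) in UFM1-KO and 0.61 (SE 0.38) in UFSP2-KO. EMC8 mRNA varied little, at 54.1 and 64.7 CPM in UFM1-KO and 65.5 and 58.0 CPM in UFSP2-KO, against 63.5 and 57.9 CPM in WT. For EMC8 the log2 change was -0.03 (SE 0.22) in UFM1-KO against 0.03 (SE 0.22) in UFSP2-KO. Against WT, edgeR called 0 of the 6 in UFM1-KO, where it called 1.97% of features, with 2 at an unadjusted p under 0.05, EMC3 and EMC7; DESeq2 called 1. In UFSP2-KO edgeR called 0, against 7.19% of features, with 3 at an unadjusted p under 0.05, EMC1, EMC3 and EMC7; DESeq2 called 0. The median log2 change of the 6 stood at 0.30 in UFM1-KO and at 0.35 in UFSP2-KO, against -0.0064 and -0.0089 over all features.

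**Figure D4:**
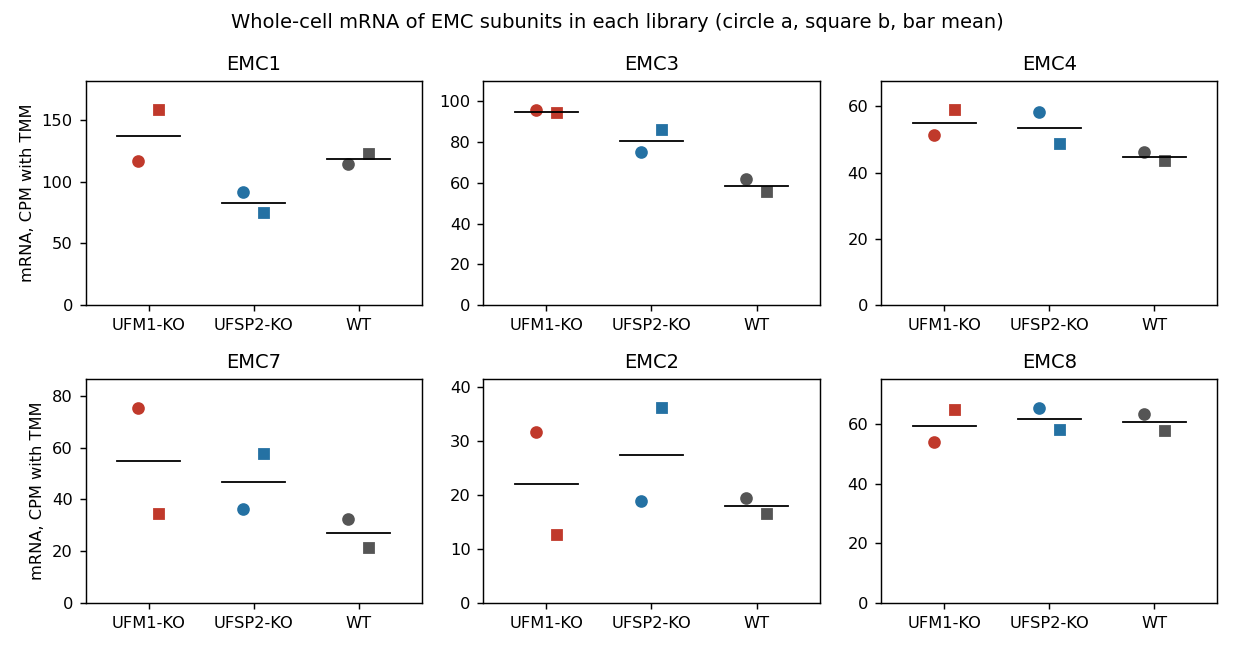
Whole-cell mRNA of each EMC subunit in UFM1-KO, UFSP2-KO and WT, in CPM with TMM scaling on linear axes that start at 0; circles are library a, squares library b and bars the mean of 2 libraries. EMC1 is lowest in UFSP2-KO, EMC3 is higher in both knockouts than in WT, EMC7 and EMC2 differ widely between libraries of a knockout, and EMC8 stays between 54.1 and 65.5 CPM.

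Changes in footprints and in mRNA were compared in a joint model of all 18 libraries, to ask whether translation of a subunit changed by another amount than its mRNA. The test was called for 0 of 6 subunits in the membrane fraction of UFM1-KO (0% of 12619 features called) and of UFSP2-KO (0.0792%), and for 0 in the cytosol of UFM1-KO (0%) and of UFSP2-KO (0.0158%). None of the 4 comparisons had a member at an unadjusted edgeR p under 0.05 (0 of 6 in each), and DESeq2 called 0. For membrane footprints the median log2 difference of the 6 stood at -0.25 in UFM1-KO and at -0.37 in UFSP2-KO, against -0.0034 and -0.060 over all features. The 95% intervals of the 6 subunits there ran from -1.84 to 0.996 in UFM1-KO and from -1.60 to 1.34 in UFSP2-KO. In the cytosol they ran from -2.86 to 3.09 in UFM1-KO and from -2.74 to 3.58 in UFSP2-KO, widest for EMC7. For EMC1, EMC3 and EMC7, with their few cytosol counts, several-fold differences were thus not detectable.

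Levels of different subunits were compared as density, the CPM without TMM scaling per 1000 codons of coding length. At the membrane EMC4 (median over 6 libraries 503, range 324 to 631), EMC3 (493, 406 to 550) and EMC7 (397, 274 to 550) had the highest densities and overlapped each other. EMC1 followed at 188 (164 to 245), EMC8 at 93.6 (69.6 to 123) and EMC2 at 33.4 (23.5 to 39.9). The order EMC1, EMC8, EMC2 held in all 6 membrane libraries, and EMC3, EMC4 and EMC7 were above EMC1 in all 6. EMC1 had the most membrane footprints of the 6 in CPM, spread over the longest coding sequence.

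In the cytosol the order was another one. EMC8 had a median density of 138 (114 to 168), EMC4 of 93.7 (66.1 to 136) and EMC2 of 48.8 (28.4 to 60.8). EMC3 (4.53), EMC1 (3.10) and EMC7 (2.67) were far below them and could not be ranked among themselves at 0 to 8 counts per library. EMC8 was above EMC4 in 5 of the 6 cytosol libraries.

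In mRNA the subunits were closer together. EMC8 (median 116, range 105 to 125), EMC3 (114, 88.2 to 146) and EMC4 (111, 102 to 130) overlapped at the top. EMC7 (55.4, 36.9 to 125), EMC1 (44.2, 27.0 to 58.8) and EMC2 (24.5, 16.3 to 45.8) overlapped below them. EMC7 reached into the upper group in UFM1-KO library a, and in UFSP2-KO library b, at 91.0, it passed the lowest value of EMC3. The range of EMC8, a soluble subunit, lay within that of EMC3.

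**Figure D5:**
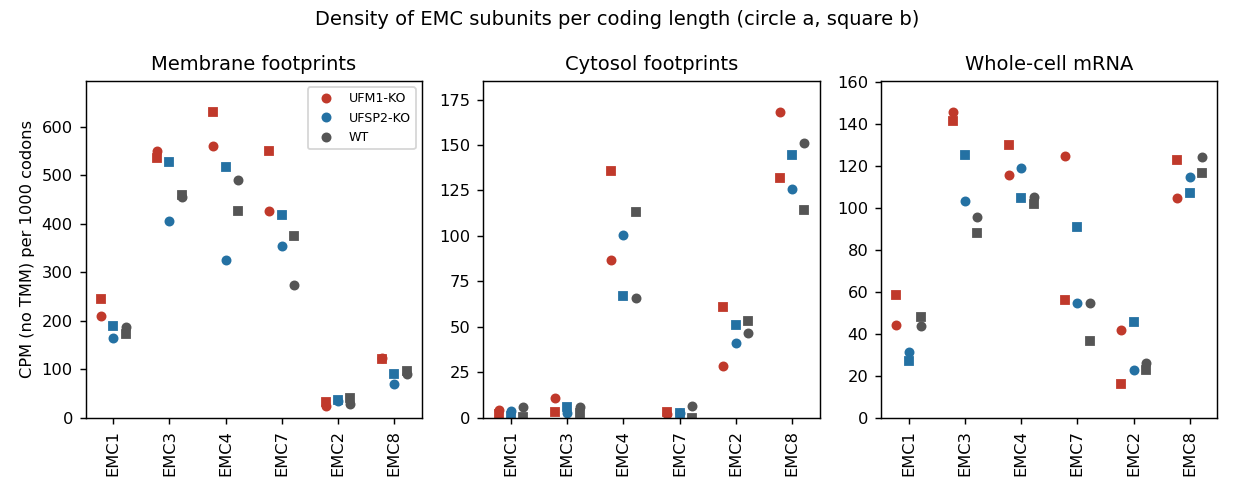
Density of each EMC subunit, in CPM without TMM scaling per 1000 codons, in membrane footprints, cytosol footprints and whole-cell mRNA; red, blue and grey are UFM1-KO, UFSP2-KO and WT, circles library a and squares library b, and each panel has its own linear scale from 0. EMC3, EMC4 and EMC7 lead at the membrane, EMC8 and EMC4 in the cytosol, and EMC8, EMC3 and EMC4 in mRNA.

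The level of footprints relative to mRNA, as the ratio of mean CPM values, separated the classes as well. The features tested held unlike parts of the library totals in the 2 assays. They held 5.95e+06 of 8748060 counts in UFM1-KO membrane library a, and 2.50e+07 of 68675420 in UFM1-KO mRNA library a. A ratio of 1 thus has no meaning of its own, and the ratios are read against each other and against all features. In the membrane fraction it was 3.09 in UFM1-KO, 3.03 in UFSP2-KO and 4.26 in WT for EMC7. For EMC3 it was 2.17, 2.32 and 2.99, for EMC4 2.77, 2.13 and 2.65, and for EMC1 2.54, 3.44 and 2.36 in the same lines. All 4 anchored subunits stood at or above percentile 89.1 of the features compared in each line. EMC2 had 0.544, 0.609 and 0.831 and EMC8 had 0.615, 0.407 and 0.466, at percentiles between 24.7 and 58.6. In the cytosol EMC4 had 0.438 in UFM1-KO, 0.378 in UFSP2-KO and 0.483 in WT, somewhat below the middle of all features at percentiles 38.9, 34.0 and 42.8. EMC1, EMC3 and EMC7 had 0.0154 to 0.0392 there, at or below percentile 10.2. These ratios are descriptions of 2 libraries per group, and footprints and mRNA were scaled separately.

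Across the footprint group means of log2 CPM, without those of mRNA, the profiles of the anchored subunits had nearly the same shape. The size of the difference between fractions, which was far smaller for EMC4, does not enter this measure. Pearson's r was at least 0.995 between any pair of them, while EMC2 and EMC8 correlated at 0.082. These values describe a few points that share libraries and are dominated by the difference between the fractions. Over all 9 group means, mRNA included, the mean profile of each class was then compared with 7462 features. The profiles most like the mean of the anchored subunits were those of ENST00000539652.1 (r = 0.999) and ENST00000480567.4 (r = 0.999), and 986 features exceeded 0.95. Those most like the mean of the soluble subunits were ENST00000450253.5 (r = 0.987) and ENST00000533050.4 (r = 0.984), with 150 features over 0.95. With EMC2 and EMC8 so little correlated in footprints, their mean need not resemble either of them, and neither was compared alone.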

How the data were processed

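Ribosome footprints from 12 libraries and mRNA from 6 libraries were deposited by the authors as raw counts per Ensembl transcript, in whole numbers, beside a coding length. The submitters' processing notes name TopHat2 2.1.1 and the build GRCh38. What counted the reads, whether strand was used and which annotation served is not stated in these sources. Groups come from the labels. Transcripts that had the same counts throughout an assay were merged into features.

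Counts were tested in R 4.3.3 with edgeR 4.0.16 (filterByExpr with a minimum count of 10, TMM, glmQLFit and glmQLFTest, 1 coefficient per group). There was 1 model for footprints (11065 features), 1 for mRNA (13889 features) and 1 for both (12619 features), with two-sided tests, Benjamini-Hochberg adjustment over all features and a threshold of 0.05. DESeq2 1.42.0, other scalings and filters, unmerged transcripts, a block for the library letter, models of only the groups compared and leaving out each library were alternatives. SEs derive from the F statistic. Ratio intervals are exact binomial intervals (scipy 1.17.1). The scripts were tested on simulated data.

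All 6 members were named by rule. The 6 members, the classes and the tests were chosen with earlier results of these data known.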

Additional observations from a re-analysis of the deposited data

How the results depend on the processing

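The calls of EMC1, EMC3, EMC4 and EMC7 as higher at the membrane held in all 3 lines under every alternative tried, and 0 members were called in membrane footprints between lines, the cytosol, the interaction and the footprint-less-mRNA comparisons under any. The mRNA counts did not hold. In UFM1-KO against WT 1 member was called with a replicate block (EMC7, log2 1.0, edgeR adjusted p = 0.0405), with DESeq2 and with only the groups compared, and 0 to 1 with 1 library left out. In UFSP2-KO against WT 1 was called with only the groups compared and 0 to 1 with 1 library left out. In UFM1-KO against UFSP2-KO 0 were called with a replicate block (EMC1, edgeR adjusted p = 0.0644) or with only the groups compared, and 0 to 2 with 1 library left out.

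The letters a and b are not said to pair libraries. Correlations of their deviations between groups were 0.032 to 0.221 for footprints and -0.364 to 0.051 for mRNA, and the block was kept as an alternative. It also called EMC8 in UFSP2-KO membrane against cytosol (-0.64, edgeR adjusted p = 0.0356), as did no filter (-0.69), unmerged transcripts (-0.67) and only the groups compared (-0.67). Beyond this call and the mRNA calls of EMC7 and EMC1 given above, the block changed none. With library size only, signs turned for EMC1 in UFSP2-KO against WT membrane footprints (-0.0088) and for EMC8 mRNA in UFSP2-KO against WT (-0.11) and in UFM1-KO against UFSP2-KO (0.026). WT membrane densities moved to 193 for EMC1 and 489 for EMC3 with TMM totals, and to 422 for EMC3 and 408 for EMC4 per amino acid length.

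Leaving out 1 library turned the sign of log2 changes that were near 0 or variable, fitted with the lone library assumed to vary like the others. Membrane against cytosol in UFM1-KO ran from -0.97 to 0.13 for EMC2 and from -0.23 to 0.12 for EMC8. UFSP2-KO against WT membrane footprints ran from -0.098 to 0.16 for EMC1, -0.066 to 0.45 for EMC2, -0.13 to 0.29 for EMC3, -0.45 to 0.26 for EMC4 and -0.40 to 0.015 for EMC8. EMC3 in UFM1-KO against UFSP2-KO membrane footprints ran from -0.063 to 0.37. UFM1-KO against WT mRNA ran from -0.016 to 0.42 for EMC1, -0.52 to 0.81 for EMC2 and -0.16 to 0.094 for EMC8, and UFSP2-KO against WT mRNA from -0.064 to 0.13 for EMC8. UFM1-KO against UFSP2-KO mRNA ran from -1.13 to 0.23 for EMC2, -0.085 to 0.18 for EMC4, -0.44 to 0.69 for EMC7 and -0.19 to 0.067 for EMC8. The EMC2 to EMC8 ratio, membrane less cytosol, ran from -0.23 to 0.25 on the log2 scale. Depth limits the cytosol values of EMC1, EMC3 and EMC7, at 0 to 8 counts per library.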
